A study of Mus musculus with 30 samples.

Results

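Single primordial germ cells (PGCs) labelled *Prdm14* (+/-) were compared with PGCs labelled WT, or (+/+), across all genes on the array. All 13 cells with the (+/-) label and all 13 with the WT label were taken, which is 26 of the 30 cells in the series; the other 4 carry the *Prdm14* KO label. Every cell came from C57BL/6 embryos of parents that were both *Prdm14* (+/-), dissected at embryonic day 7.25 to 7.5, and the labels differ in the number of intact *Prdm14* alleles. Cells of the tissue at the base of the allantois bud were dispersed with trypsin and picked singly by glass capillary. Their cDNA was amplified, a PCR for *Prdm1* decided which were PGCs, a PCR gave the *Prdm14* genotype, and the cDNA of each cell was put on its own Affymetrix Mouse Genome 430 2.0 array. Since no label says which embryo a cell came from, a genotype counts as 1 sample here. The SDs give the spread over cells, which may include spread between embryos, and there is no p-value.

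PGCs are the founders of sperm and oocytes and arise from the posterior epiblast in response to BMP signals. The transcription factors PRDM1, PRDM14 and TFAP2C set up their programme, in which somatic genes are repressed, pluripotency genes such as *Sox2* return and the machinery of DNA methylation is turned down. PRDM14 is a zinc finger protein that acts mostly as a repressor in PGCs and in embryonic stem cells.

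Levels are log2 values of the model-based expression index (MBEI), and any value under 6 (64 MBEI) was set to 6, called the floor. Values at the floor have no order and can be missed transcripts. The size of a difference from a group that lies mostly there therefore depends on the floor chosen, and can be too small or too large. A gene is called higher or lower where the means differ by at least 1 on this log2 scale, which is 2-fold. The code in each array's title shows 3 runs, although the labels do not say what the code stands for. Run 1 held 10 of the cells labelled WT, run 2 held 7 labelled *Prdm14* (+/-) with the other 3 labelled WT, and run 3 held the other 6 labelled *Prdm14* (+/-). Run 2 is therefore the only run in which the labels can be compared, and elsewhere run and label cannot be told apart.

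The arrays of the labels were alike in detection. On average 63.7% ± 2.84 of the probe sets were listed at 0 in cells labelled *Prdm14* (+/-) and 64.3% ± 3.13 in cells labelled WT (SD, n = 13 cells each). Between 5890 and 7790 genes were above the floor in cells labelled *Prdm14* (+/-) and between 5749 and 8157 in cells labelled WT. The germ cell markers *Prdm1*, *Alpl*, *Ifitm1*, *Ifitm2*, *Ifitm3* and *Pou5f1* were above the floor in all 26 cells, though a PCR for *Prdm1* had chosen the cells. Other germ cell genes were missed in some cells. Above the floor under the *Prdm14* (+/-) and WT labels were 12 and 12 cells for *Kit*, 10 and 10 for *Dppa3* and 10 and 12 for *Tfap2c*. For *Dnd1* they were 10 and 13, for *Prdm14* 12 and 6, for *Fut4* 6 and 4 and for *Itgb3* 1 and 0. Among markers of neighbouring lineages, 4 of 14 for endoderm, 6 of 17 for blood and endothelium and 3 of 6 for extraembryonic ectoderm, *Afp*, *Ttr*, *Gata1*, *Hbb-bh1* and *Elf5* included, were at the floor in every cell. The mean over the endoderm markers ran from 6.24 to 6.87 in cells labelled *Prdm14* (+/-) and from 6.00 to 6.75 in cells labelled WT, and that over the blood and endothelial markers from 6.00 to 6.63 in cells labelled *Prdm14* (+/-) and from 6.00 to 6.50 in cells labelled WT. Some of these markers were detected in many cells, such as *Sox17*, an endoderm factor, in 8 cells labelled *Prdm14* (+/-) and 9 labelled WT, and *Lmo2*, a blood and endothelial factor, in 9 labelled *Prdm14* (+/-) and 5 labelled WT. Mesoderm factors were partly present, with *Msx1* and *Cdx2* above the floor in all 26 cells and *Tbx2* and *Tbx4* in 0. The mean over the 21 mesoderm factors ran from 6.86 to 8.67 in cells labelled *Prdm14* (+/-) and from 7.10 to 8.44 in cells labelled WT.

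*Prdm14* itself was higher in the cells with the label of fewer intact alleles. Its lowest, median and highest levels were 6.00, 10.004 and 11.79 in cells labelled *Prdm14* (+/-), against 6.00, 6.00 and 10.44 in cells labelled WT. It rose above the floor in 12 of the 13 cells labelled *Prdm14* (+/-) and in 6 of the 13 labelled WT. The groups overlapped, with 6 cells labelled *Prdm14* (+/-) above every cell labelled WT. The mean was 9.70 ± 1.93 in cells labelled *Prdm14* (+/-) and 7.40 ± 1.85 in cells labelled WT (SD, n = 13 cells each), a difference of 2.29, beyond the pooled SD of 1.89. It was 1.82 within run 2, where the 3 cells labelled WT had 6.00, 9.34 and 10.44, and 1.81 between the cells of run 3 and run 1. The 4 cells labelled *Prdm14* KO, at 10.02 to 12.15, were above the floor as well. The transcript thus runs against the genotype labels, and no source used here says whether the deletion covers its probe set. Each direction below is read from the labels as deposited. None of the 17 measured genes among the 10 protein-coding genes on either side of *Prdm14* on chromosome 1 was called. Over all genes 2.46% were higher and 2.00% lower, so a list of this size can hold no called gene at that share. The differences were -0.27 for *Ncoa2*, a nuclear receptor coactivator, and -0.61 for *Sulf1*, a heparan sulfate sulfatase.

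Across the genome few genes separated the labels. Of 18194 genes, 448 were higher in the cells labelled *Prdm14* (+/-) (2.46%) and 363 were lower (2.00%). Among the 5254 genes with a mean of at least 8 over the 26 cells, 4.87% were higher and 218 genes (4.15%) were lower. The spread between cells was wide: the median SD of these 5254 genes was 1.32 in cells labelled *Prdm14* (+/-) and 1.31 in cells labelled WT, and 154 of them differed by more than their pooled SD. In 0 of 18194 genes did all cells of a label lie above all cells of the other. Over the 5254 genes, the median correlation between a pair of cells was 0.465 for 78 pairs labelled *Prdm14* (+/-) and 0.483 for 78 pairs labelled WT, and 0.468 for 169 pairs of a cell of each label, so pairs across labels resembled each other about as much as pairs within a label.

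The difference was then taken in cells that share no array. Within run 2, 1123 genes were higher (6.17%) and 1548 lower (8.51%) in the cells labelled *Prdm14* (+/-). Between the cells labelled *Prdm14* (+/-) of run 3 and those labelled WT of run 1, 896 were higher (4.92%) and 605 lower (3.33%). Called in both, 143 genes were higher, which is 12.7% of the higher genes of run 2 and 15.96% of those of the other cells, and 127 were lower, or 8.20% and 21.0%. That makes 270 genes called the same way in both sets, beside 242 called opposite ways. Over all genes the correlation of the 2 differences was 0.026, a description across genes, which are not independent replicates. With a threshold of 2 in place of 1, 9 genes were called the same way and 3 opposite ways. Cells of 1 label also differed between runs: 1790 genes (9.84%) were called between run 2 and run 3 among cells labelled *Prdm14* (+/-), and 2208 (12.1%) between run 2 and run 1 among cells labelled WT, against 2671 (14.7%) between the labels within run 2. The groups differ in size between these comparisons, from 3 to 10 cells, and the part of group size in the counts was not tested.

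**Figure D1:**
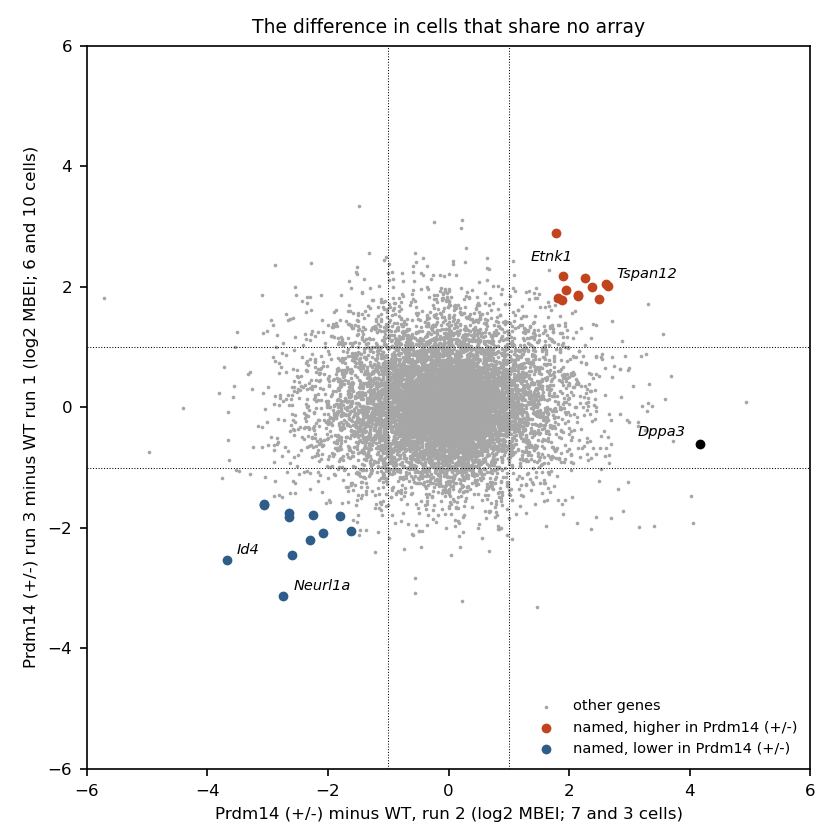
Difference of mean log2 MBEI between cells labelled *Prdm14* (+/-) and WT for each of 18194 genes (points), within run 2 on the x axis (7 and 3 cells) and between run 3 and run 1 on the y axis (6 and 10 cells), with dotted lines at -1 and 1. The cloud has no slope (correlation across genes 0.026), the coloured named genes were picked for lying far out on both axes, and *Dppa3* stands at 4.18 on the x axis and at -0.61 on the y axis.

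Genes were named by the smaller of these 2 differences, among genes with the same sign in both whose higher label averaged 8 or more, and the 12 with the highest rank on each side were taken. Their differences chose them and are a description. The 12 higher genes differed by 1.48 to 2.43 over the 26 cells, 9 of them by more than the pooled SD, and the 12 lower genes by -2.85 to -1.58, 10 of them by more than the pooled SD. The last gene inside the list had a smaller difference of 1.77 on the higher side and 1.60 on the lower side, and those just outside were *Smc6*, a subunit of a chromosome maintenance complex, at 1.72 and *G2e3*, a ubiquitin ligase, at 1.59.

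Highest in rank in the cells labelled *Prdm14* (+/-) was *Etnk1*, an ethanolamine kinase that starts the CDP-ethanolamine route to the membrane lipid phosphatidylethanolamine. Its lowest, median and highest levels were 9.50, 10.75 and 11.25 in cells labelled *Prdm14* (+/-) and 6.00, 8.91 and 10.40 in cells labelled WT. It exceeded the floor in 13 of 13 cells labelled *Prdm14* (+/-) and in 8 of 13 labelled WT, and all 13 of the cells labelled *Prdm14* (+/-) lay above the median of those labelled WT, 9 of them above every one. The means were 10.54 ± 0.55 in cells labelled *Prdm14* (+/-) and 8.20 ± 1.89 in cells labelled WT. Another probe set of *Etnk1* differed by -0.03, and the mean over its probe sets by 0.54. *Tspan12*, a tetraspanin that supports Frizzled-4 signalling in the retina, exceeded the floor in 8 of 13 cells labelled *Prdm14* (+/-), up to 11.33, and in 1 of 13 labelled WT, at 9.04. *Rnf130*, a membrane-bound ubiquitin ligase, gave 6.00, 8.20 and 10.72 in cells labelled *Prdm14* (+/-) and 6.00, 6.00 and 7.88 in cells labelled WT, with 9 of the cells labelled *Prdm14* (+/-) above every cell labelled WT.

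In the other higher genes the labels overlapped as well. *Arhgap29* averaged 9.26 ± 2.05 in cells labelled *Prdm14* (+/-) and 7.13 ± 1.64 in cells labelled WT, and *Adam19*, a membrane metalloprotease, averaged 8.91 ± 1.78 in cells labelled *Prdm14* (+/-) and 6.98 ± 1.36 in cells labelled WT. *Nit1*, a nitrilase family enzyme that repairs a by-product of glutathione metabolism, was above the floor in all 13 cells labelled *Prdm14* (+/-) and in 7 of 13 labelled WT. *Mtss1*, which binds actin and curved membranes, averaged 10.95 ± 1.55 in cells labelled *Prdm14* (+/-) and 9.20 ± 1.96 in cells labelled WT, and its 3 other probe sets above the floor in at least 5 cells differed by 1.44, 0.40 and 0.33. With the mean over all its probe sets the difference was 0.80, under the size of a call. *Plac8*, which encodes a small cysteine-rich protein, had a median of 10.26 in cells labelled *Prdm14* (+/-) and 6.00 in cells labelled WT. The differences were 1.78 for *Mid1ip1*, a regulator of fatty acid synthesis, and 1.48 for *Ndufb1*, an accessory subunit of respiratory complex I. The size for *Ndufb1* was within its pooled SD of 2.28.

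Among the lower genes, *Id4*, an inhibitor of basic helix-loop-helix factors and a BMP-responsive gene in other cells, had the largest difference over the 26 cells, -2.85. Its lowest, median and highest levels were 6.00, 6.00 and 10.19 in cells labelled *Prdm14* (+/-) and 6.00, 10.55 and 12.01 in cells labelled WT. It was detected above the floor in 5 of the 13 cells labelled *Prdm14* (+/-) and in 12 of 13 labelled WT, and every cell labelled *Prdm14* (+/-) lay below the WT median. A further probe set of *Id4* differed by -1.996 over the 26 cells, by -0.76 within run 2 and by -2.51 in the other cells. *Neurl1a*, a ubiquitin ligase whose fly relative acts on Notch ligands, exceeded the floor in 3 of 13 cells labelled *Prdm14* (+/-) and in 11 of 13 labelled WT, with means of 6.61 ± 1.20 in cells labelled *Prdm14* (+/-) and 9.31 ± 1.68 in cells labelled WT. Of its other probe sets 1 was above the floor in at least 5 cells, and it differed by -1.48 over the 26 cells but by 0.35 within run 2.

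*Naprt*, the enzyme that makes NAD from nicotinic acid, was at the floor in all 13 cells labelled *Prdm14* (+/-) and above it in 10 of 13 labelled WT, where it reached 9.95. Against the floor of 6, the difference of means was -2.22, and it was -3.76 with a floor of 4 and -0.81 with a floor of 8. Within run 2 the 3 cells labelled WT had 6.00, 9.78 and 9.12, so a single cell of that label looked like those labelled *Prdm14* (+/-). *Pdpn*, the mucin-like membrane protein podoplanin, was above the floor in every cell of both labels. Its levels were 6.14, 9.76 and 11.39 in cells labelled *Prdm14* (+/-) and 9.96, 11.16 and 12.14 in cells labelled WT, and the SD was 1.92 in cells labelled *Prdm14* (+/-) and 0.61 in cells labelled WT. In *Stmn2*, a microtubule-destabilising protein of neurons, the spread was likewise wider in cells labelled *Prdm14* (+/-), at 8.04 ± 2.28, than in cells labelled WT, at 10.37 ± 0.78, and the highest cell of all, at 12.45, was labelled *Prdm14* (+/-). Another probe set of *Stmn2* differed by 0.02.

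**Figure D2:**
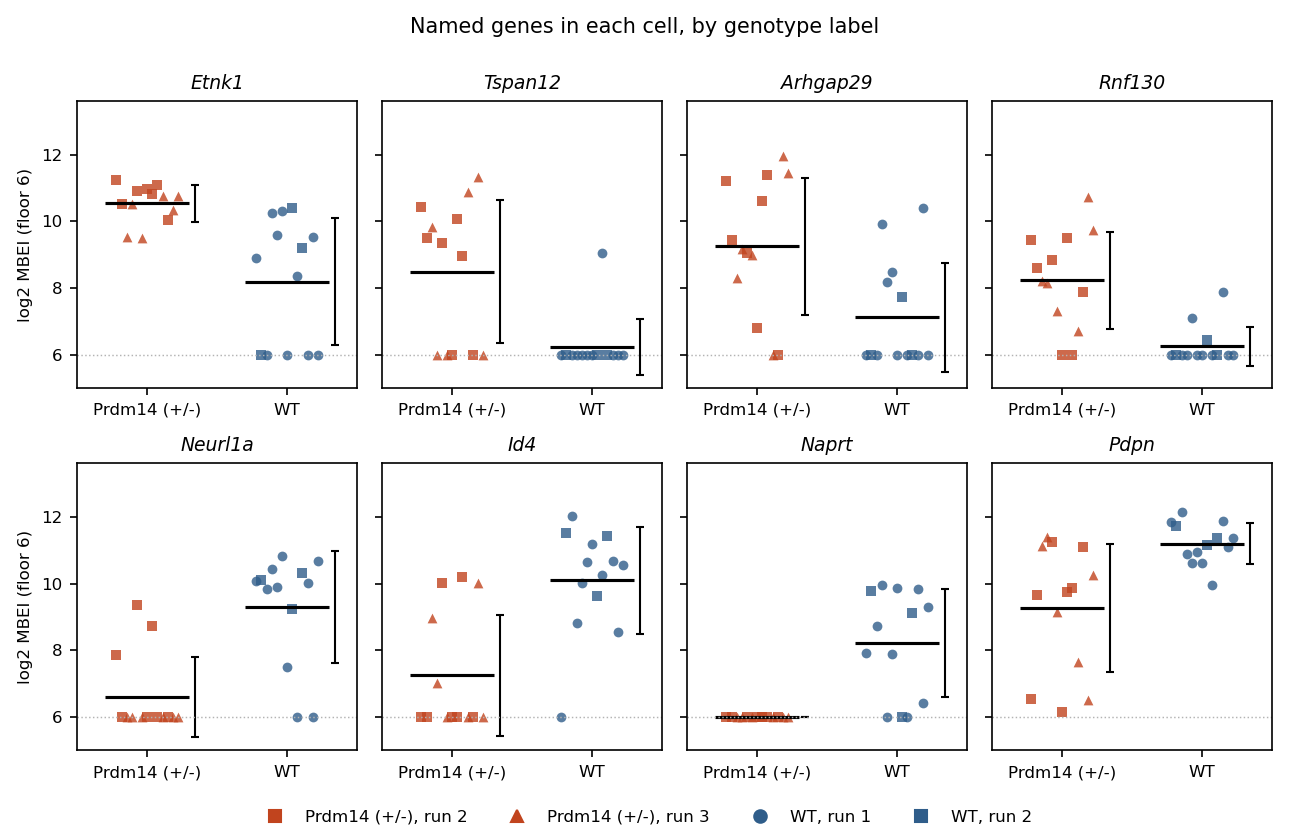
Log2 MBEI (y axis, floor 6) in each cell for 4 named genes that were higher and 4 that were lower, cells labelled *Prdm14* (+/-) left and WT right, symbols by run, line and bar for the mean and SD over 13 cells. *Etnk1* holds all 13 cells labelled *Prdm14* (+/-) at 9.50 or above, *Naprt* holds all 13 at the floor, and no gene separates the labels fully.

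The rest of the lower group were *Cpm*, a membrane carboxypeptidase, with a difference of -2.49, and *Wdr76*, a WD repeat protein, with -2.54. *Tasp1*, the protease that cleaves MLL histone methyltransferases, differed by -2.01 and *Aldh9a1*, an aldehyde dehydrogenase of carnitine synthesis, by -1.58, and another of its probe sets by -1.32. *Lrrc28*, *Zfp629*, a zinc finger protein, and *Sncb*, which encodes beta-synuclein, differed by -1.80, -1.98 and -1.99. Over both groups, 9 of the 24 named genes had 1 probe set. Of 12 further probe sets of the others that were above the floor in at least 5 cells, 9 had the sign of the probe set that stood for the gene and 4 were past 1 with that sign. With all probe sets of a gene averaged, 8 of the 24 were under the size of a call, and with a floor of 8 it was 5.

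Counting cells above the floor, with no use of levels, gave a short list. Above the floor in at least 10 cells labelled *Prdm14* (+/-) and in at most 3 labelled WT were 6 of 18194 genes, *Map3k11*, *Nes*, *Notch2*, *Plod2*, *Rnf130* and *Usp38*. In the other direction were 8 of 18194 genes, *Grina*, *Hdhd5*, *Iqcc*, *Naprt*, *Neurl1a*, *Rev3l*, *Sox11* and *Tctn3*. Apart from *Rnf130*, *Naprt* and *Neurl1a*, these were chosen after their values were seen. *Nes*, the intermediate filament protein nestin, had a narrow spread, with 7.45 ± 0.68 in cells labelled *Prdm14* (+/-) and 6.20 ± 0.48 in cells labelled WT, and exceeded the floor in 11 cells labelled *Prdm14* (+/-) and 2 labelled WT. Its difference was 1.25 over the 26 cells, 1.05 within run 2 and 1.26 in the other cells, though all its values are close to the floor. Of 9 epiblast and ectoderm markers measured, *Nes* was the 1 higher, and 1 was lower, by -2.07, against 2.46% and 2.00% over all genes.

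The upstream sequences of 4 named genes are shown because PRDM14 binds DNA and these genes led their groups; of each side, the 2 genes highest in rank with a single annotated start were taken. Each run is the 250 bases before the transcript start, 5′ to 3′ on the gene's strand, from RefSeq (GRCm38.p6), with CG dinucleotides, the sites of DNA methylation, in capitals.
Etnk1, chr6:143166980-143167229, plus strand: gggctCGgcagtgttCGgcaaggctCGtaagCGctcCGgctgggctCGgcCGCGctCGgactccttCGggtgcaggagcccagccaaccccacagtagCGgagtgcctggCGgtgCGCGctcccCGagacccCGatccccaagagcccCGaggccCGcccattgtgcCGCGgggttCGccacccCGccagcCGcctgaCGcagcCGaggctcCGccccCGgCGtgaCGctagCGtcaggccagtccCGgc
Tspan12, chr6:21852534-21852783, minus strand: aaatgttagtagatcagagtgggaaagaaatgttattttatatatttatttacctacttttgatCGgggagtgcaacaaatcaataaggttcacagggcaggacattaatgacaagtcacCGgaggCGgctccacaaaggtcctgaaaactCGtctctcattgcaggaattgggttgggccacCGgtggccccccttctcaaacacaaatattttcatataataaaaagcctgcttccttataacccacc
Neurl1a, chr19:47178570-47178819, plus strand: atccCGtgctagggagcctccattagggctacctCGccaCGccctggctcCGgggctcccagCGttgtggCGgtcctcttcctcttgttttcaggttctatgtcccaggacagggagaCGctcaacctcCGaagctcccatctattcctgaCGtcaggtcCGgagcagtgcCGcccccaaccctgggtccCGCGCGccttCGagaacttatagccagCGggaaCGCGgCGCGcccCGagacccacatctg
Id4, chr13:48260866-48261115, plus strand: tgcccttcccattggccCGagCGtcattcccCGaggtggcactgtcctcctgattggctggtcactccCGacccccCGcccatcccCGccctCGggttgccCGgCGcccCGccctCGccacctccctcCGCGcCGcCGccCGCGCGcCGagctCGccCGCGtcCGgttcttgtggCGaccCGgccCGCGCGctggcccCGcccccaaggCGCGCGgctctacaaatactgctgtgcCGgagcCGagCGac

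The upstream sequence of *Tspan12* held 5 CG dinucleotides, against 31 for *Etnk1*, 21 for *Neurl1a* and 35 for *Id4*. Over all 32851 promoters of the table the median was 6. It was 11.5 over 14 promoters of 10 of the higher genes and 15 over 13 promoters of 10 of the lower genes. The named genes had to reach a minimum level in their higher label, whereas all promoters were taken without a filter on expression. No background of expressed genes was taken, so these medians cannot say whether CG content goes with the difference between labels. The letters GTCTCTA, the core of the motif bound by PRDM14 in embryonic stem cells, were searched on both strands of the 300 bases from 250 before to 50 after the start. They were found in 3.30% of all promoters and in 0 of these 14 and 0 of these 13.

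Germ cell genes other than *Prdm14* did not move together. Of 11 measured, 1 was higher, 1 was lower and 9 were not called, with a median difference of 0.11, against 0 over all genes. The counts of each list below stand against 2.46% of all genes higher and 2.00% lower. *Dppa3*, which encodes a chromatin factor of germ cells and oocytes, differed by 1.18, which is less than the pooled SD of 2.48. Its lowest, median and highest levels were 6.00, 12.12 and 13.06 in cells labelled *Prdm14* (+/-) and 6.00, 9.26 and 11.77 in cells labelled WT. The floor held 3 cells of each label, and no cell labelled *Prdm14* (+/-) lay between 9.85 and 12.12. The difference was 4.18 within run 2, where the cells labelled WT had 6.00, 6.00 and 9.25, and -0.61 in the cells of the other runs. *Dnd1*, an RNA-binding protein that germ cells need to survive, differed by -1.01, at 9.91 ± 2.37 in cells labelled *Prdm14* (+/-) and 10.92 ± 1.40 in cells labelled WT, with -0.66 within run 2 and -1.22 in the other cells. *Prdm1*, the transcript by which the cells were picked, averaged 10.23 ± 1.36 in cells labelled *Prdm14* (+/-) and 10.12 ± 1.20 in cells labelled WT, and its small difference of 0.11 was -0.27 within run 2. *Tfap2c* differed by -0.81, with 0.64 within run 2 and -1.52 in the other cells. *Kit*, the receptor that guides migrating germ cells, differed by 0.25, with 0.26 and -0.42. The surface protein gene *Ifitm3* differed by 0.09, with 1.35 and -0.43. With *Prdm14* included, 4 of 12 germ cell genes were higher and 0 lower within run 2, against 6.17% and 8.51% of all genes. In the other cells 1 was higher and 2 lower, against 4.92% and 3.33%. The mean over the 12 differed by 0.24 over the 26 cells, 0.76 within run 2 and -0.16 in the other cells.

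Of 21 pluripotency genes 3 were higher and 0 lower, against 2.46% and 2.00% over all genes, and all 3 had the same sign in both sets of cells. *Sox2*, also among the named genes, had 6.00, 10.30 and 12.73 as its lowest, median and highest levels in cells labelled *Prdm14* (+/-) and 6.00, 6.00 and 12.31 in cells labelled WT. Above the floor were 10 of 13 cells labelled *Prdm14* (+/-) and 6 of 13 labelled WT, and the difference of 2.15 was within the pooled SD of 2.34. *Dppa5a*, an RNA-binding protein of pluripotent cells, was higher by 1.54, with medians of 10.78 in cells labelled *Prdm14* (+/-) and 9.48 in cells labelled WT. *Klf2*, a factor of the naive state, exceeded the floor in 5 of 13 cells labelled *Prdm14* (+/-) and in 1 of 13 labelled WT, and differed by 2.11 within run 2 and by 0.47 in the other cells. The core factors were not called over the 26 cells: *Pou5f1* averaged 11.20 ± 1.07 in cells labelled *Prdm14* (+/-) and 11.61 ± 0.62 in cells labelled WT, and *Nanog* averaged 9.64 ± 2.13 in cells labelled *Prdm14* (+/-) and 10.08 ± 1.58 in cells labelled WT. Within run 2 *Nanog* differed by -1.75, the size of a call, and *Pou5f1* by -0.84. In the other cells the differences were -0.13 and -0.17. As the mean over its members in each cell, called the list score, pluripotency differed by 0.30, within the pooled SD of 0.46, and by 0.19 within run 2 and 0.27 in the other cells.

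**Figure D3:**
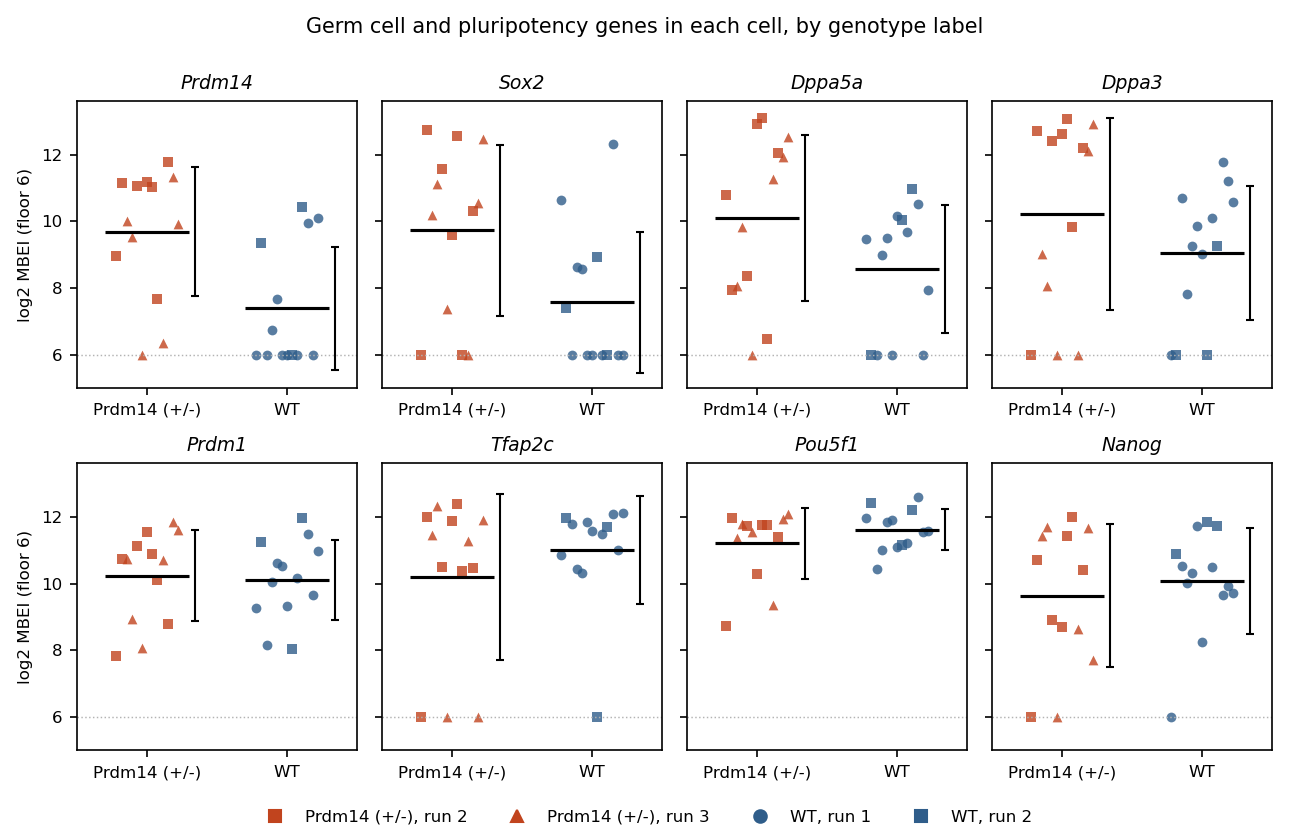
Log2 MBEI (y axis, floor 6) in each cell for 8 germ cell and pluripotency genes, cells labelled *Prdm14* (+/-) left and WT right, symbols by run, line and bar for the mean and SD over 13 cells. *Prdm14* and *Sox2* lie at the floor in 7 cells labelled WT each, *Dppa3* spans the scale under both labels, and *Prdm1* and *Pou5f1* overlap throughout.

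Glycolysis was the gene list whose score differed by more than its pooled SD. The score averaged 10.20 ± 0.32 in cells labelled *Prdm14* (+/-) and 10.63 ± 0.32 in cells labelled WT, and 12 of 13 cells labelled *Prdm14* (+/-) lay below the WT median. The difference of -0.43 was -0.87 within run 2 and -0.22 in the other cells, and it kept its sign under each of the 3 scalings tried. Of 17 enzymes and transporters, 13 were lower by any amount and 4 higher, but 2 were called, both lower, against 2.00% of all genes. The share of all genes lower by any amount was not taken. Other lists leaned in this way too. Of 81 oxidative phosphorylation subunits 55 were lower and 24 higher by any amount, and of 20 genes of the G1 and S phases 15 and 5. *Hk2*, a hexokinase that commits glucose to the pathway, averaged 8.19 ± 2.21 in cells labelled *Prdm14* (+/-) and 9.999 ± 1.97 in cells labelled WT, and *Pfkm*, a phosphofructokinase subunit, differed by -1.06, which was -0.68 within run 2 and -1.61 in the other cells. Members far above the floor moved little on the log2 scale, with tight spread: *Aldoa*, an aldolase, averaged 11.96 ± 0.63 in cells labelled *Prdm14* (+/-) and 12.55 ± 0.18 in cells labelled WT, *Pfkl* differed by -0.54, *Tpi1* by -0.42 and *Pkm*, the pyruvate kinase, by -0.27. *Gapdh*, kept in a separate list of housekeeping genes, differed by -0.19. The glucose transporter gene *Slc2a3* differed by 0.01. The score of the 81 oxidative phosphorylation subunits differed by -0.04 and that of the 42 ribosomal protein genes by 0.01, the second of which turned to -0.20 once the 75th percentile of every array was set equal. That scaling moved the median of the 5254 genes to -0.24, against -0.02 without it.

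**Figure D4:**
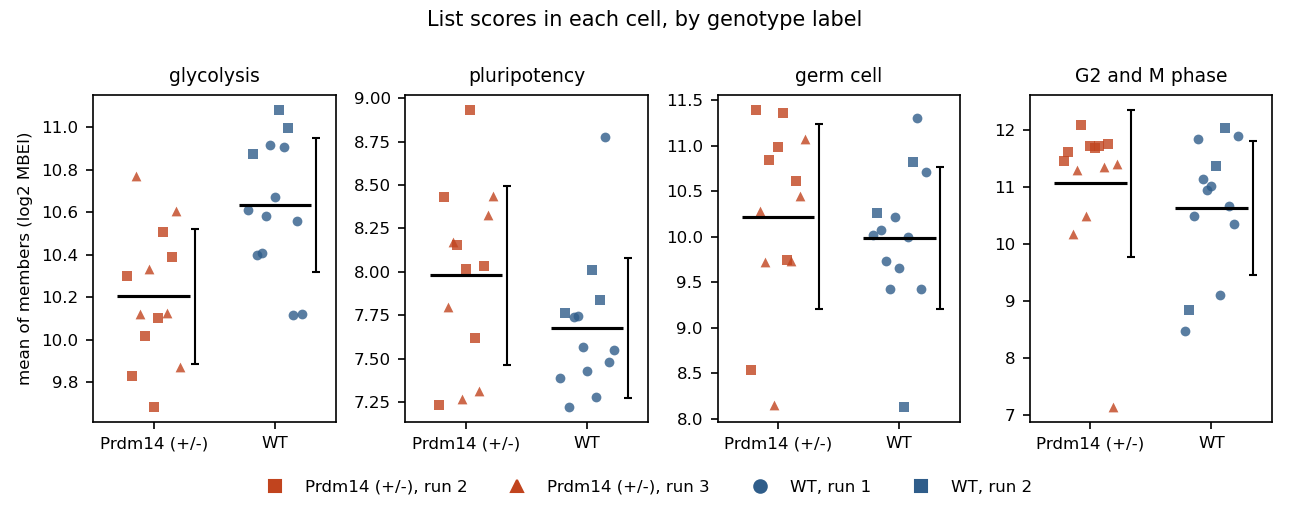
List scores (mean log2 MBEI over a list's measured genes, y axis) in each cell, cells labelled *Prdm14* (+/-) left and WT right, symbols by run, line and bar for the mean and SD over 13 cells. In glycolysis 5 cells labelled *Prdm14* (+/-) lie below every cell labelled WT, and in the G2 and M phase list a cell labelled *Prdm14* (+/-) of run 3 stands at 7.15.

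Over the 26 cells, the signalling genes called were mostly lower. In the BMP pathway, whose ligands induce PGCs, 0 of 20 genes were higher and 2 were lower, against 2.46% and 2.00% over all genes, *Id4* and the transducer *Smad5*, the second by -1.06 over the 26 cells but by -0.13 outside run 2. The score differed by -0.24 over all cells, -0.57 within run 2 and 0.09 in the other cells. *Fgfr1*, the main FGF receptor of the early mesoderm, was lower under the (+/-) label, with 6.00, 9.41 and 11.02 as its lowest, median and highest levels in cells labelled *Prdm14* (+/-) and 9.71, 10.80 and 11.17 in cells labelled WT. The cells labelled WT were tightly packed, at an SD of 0.36, and the difference of -1.48 was -1.20 within run 2 and -1.61 in the other cells. The ligand gene *Fgf8* differed by -1.26, which was -0.61 within run 2 and -2.11 in the other cells, and these were the 2 of 17 FGF pathway genes called. In the Wnt pathway 1 of 32 genes was higher and 4 were lower, again against 2.46% and 2.00% over all genes. The higher one was *Znrf3*, a ubiquitin ligase that removes Frizzled receptors, at 8.09 ± 2.04 in cells labelled *Prdm14* (+/-) and 6.16 ± 0.40 in cells labelled WT, and it was past 1 in both sets of cells. The lower ones were the ligand genes *Wnt3a*, *Wnt5b* and *Wnt8a* and the repressor *Tcf7l1*, and none of these 4 was called in the cells outside run 2. *Wnt3a* differed by -1.43 within run 2 and by -0.75 in the other cells, *Wnt5b* by -2.89 and 0.05, *Wnt8a* by -3.01 and -0.24, and *Tcf7l1* by -1.50 and -0.39. Of 13 Nodal and activin genes, *Fst*, the activin antagonist follistatin, was called, with -1.40 over the 26 cells, -2.84 within run 2 and -0.60 in the other cells. The scores of the FGF, Wnt and Nodal and activin lists differed by 0.02, 0.01 and -0.07 over the 26 cells. Within run 2 these differences were 0.09, -0.46 and -0.36, and in the other cells -0.13, 0.28 and 0.15, so each turned its sign. In the Wnt list 1 gene was higher and 8 were lower within run 2, against 6.17% and 8.51% of all genes. In the other cells 6 were higher and 0 lower, against 4.92% and 3.33%.

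Genes of DNA and histone modification were also few. Of 15 genes of DNA methylation and demethylation 0 were higher and 2 lower, against 2.46% and 2.00% over all genes: the de novo methyltransferase gene *Dnmt3b*, at 9.88 ± 2.39 in cells labelled *Prdm14* (+/-) and 11.18 ± 1.69 in cells labelled WT, and *Mbd4*, a DNA glycosylase, by -1.21. Neither was called outside run 2, as *Dnmt3b* differed by -2.40 within run 2 and by -0.52 in the other cells, and *Mbd4* by -1.31 and -0.90. *Uhrf1*, which recruits the maintenance methyltransferase, differed by -0.73 over the 26 cells, *Dnmt1* by 0.14 and *Tet1* by -0.01. Within run 2 these genes differed by -2.07, 1.08 and -1.12, each the size of a call. In the other cells they differed by -0.21, -0.01 and 0.02. Of 14 genes of H3K9 methylation and heterochromatin, *Suv39h2*, a histone H3K9 methyltransferase, was higher by 1.54, which was 2.07 within run 2 and 0.84 in the other cells. *Ehmt1*, another one, differed by -1.10, which was -1.84 within run 2 and -0.47 in the other cells. Of 18 Polycomb and H3K27 genes *Cbx2*, a Polycomb subunit, was lower, at 9.27 ± 2.36 in cells labelled *Prdm14* (+/-) and 11.12 ± 0.96 in cells labelled WT. Its difference was -2.56 within run 2 and -0.37 in the other cells, so it was not called outside run 2.

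Cell cycle scores differed in sign between the sets of cells. Of 16 genes of the G2 and M phases 3 were higher and 0 lower, *Kif11* by 1.26, *Plk1* by 1.14 and *Hmmr* by 1.04, a spindle motor, a mitotic kinase and a spindle-associated protein. All 16 have a mean of at least 8, where 4.87% of genes were higher. In the cells outside run 2 these differences were 0.86, 0.74 and -0.16. The score differed by 0.44 over the 26 cells, within a pooled SD of 1.23, by 0.96 within run 2 and by -0.28 in the other cells. In run 3, replicate 13 labelled *Prdm14* (+/-) had a score of 7.15, and the nearest cell had 10.18. The part of that cell in the sign outside run 2 was not tested. Among 20 genes of the G1 and S phases *Ccne2*, a cyclin, was called, with 1.24 over the 26 cells, but it differed by -0.36 within run 2 and by 2.34 in the other cells. Of 27 apoptosis and survival genes 3 were higher and 0 lower, against 2.46% and 2.00% over all genes. *Bcl2l11* and *Casp6*, a promoter of cell death and a caspase, were called with 2.44 and 1.41 within run 2, but differed by -0.06 and 0.40 in the other cells. *Mcl1*, which protects cells from death, differed by 1.25, with 1.97 within run 2 and 1.16 in the other cells, and had 10.92, 11.66 and 12.61 as its lowest, median and highest levels in cells labelled *Prdm14* (+/-) and 6.00, 10.96 and 11.99 in cells labelled WT. Of 21 adhesion and migration genes 1 was higher and 2 were lower, against 2.46% and 2.00% over all genes. The score of that list differed by -0.25, within its pooled SD of 0.37, by -0.52 within run 2 and by -0.09 in the other cells. *Cxcl12*, the chemokine that guides PGCs later in their migration, differed by -2.03, with medians of 8.84 in cells labelled *Prdm14* (+/-) and 11.25 in cells labelled WT.

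**Figure D5:**
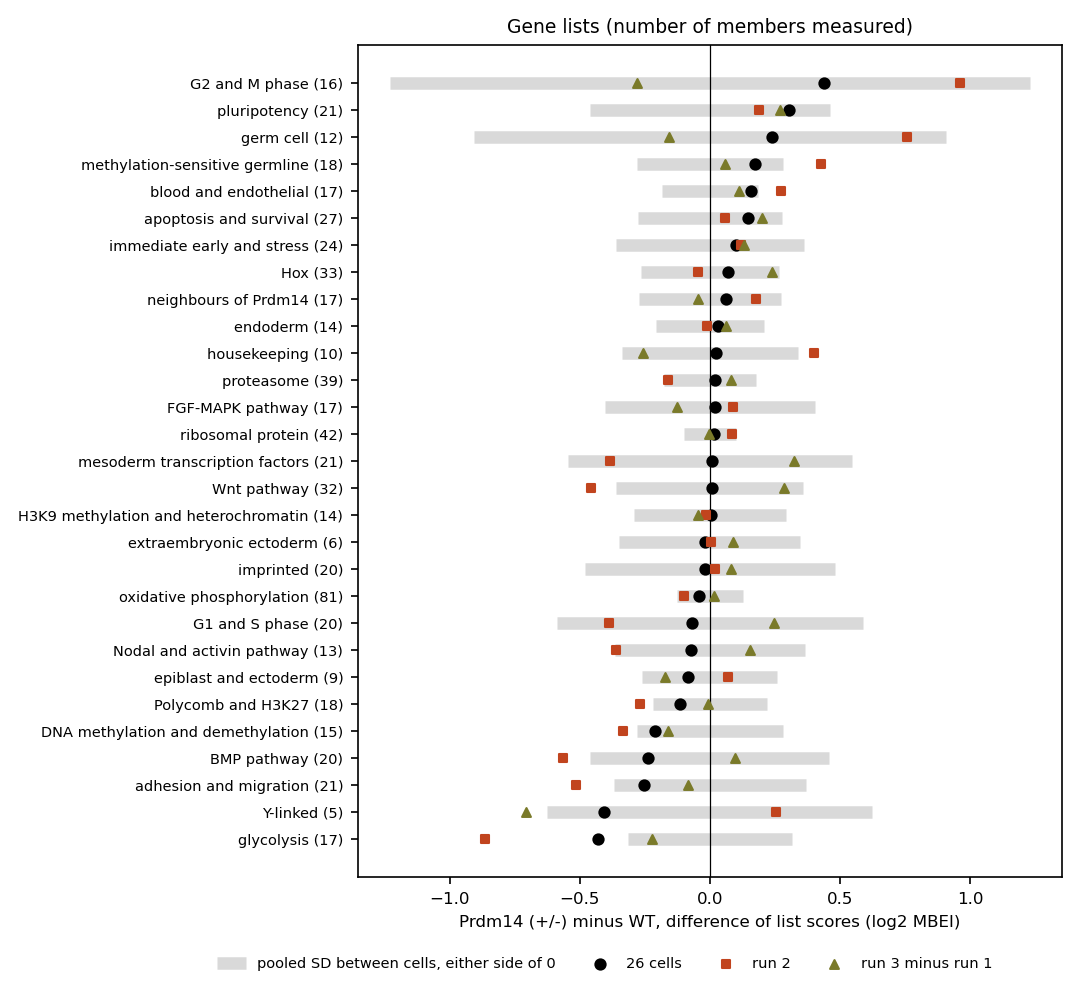
Difference of list scores between cells labelled *Prdm14* (+/-) and WT (log2 MBEI, x axis) for 29 gene lists (y axis, members measured in brackets), over 26 cells (circles), within run 2 (squares) and between run 3 and run 1 (triangles), with grey bars for the pooled SD between cells on either side of 0. Glycolysis, at -0.43, is the list whose circle lies outside its bar, and for several lists the square and the triangle lie on opposite sides of 0.

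Over all cells, the labels also differed in how often sex-linked transcripts were detected, and the labels give no embryo sex. *Xist*, the RNA of the inactive X chromosome, exceeded the floor in 10 of 13 cells labelled *Prdm14* (+/-) and in 7 of 13 labelled WT, and *Eif2s3y*, a Y-linked gene, in 2 of 13 labelled *Prdm14* (+/-) and in 5 of 13 labelled WT. No cell had both, and 1 cell of each label had neither. All 6 cells labelled *Prdm14* (+/-) of run 3 had *Xist* and 0 had *Eif2s3y*, whereas of the 10 cells labelled WT of run 1, 5 had *Xist* and 5 had *Eif2s3y*. Within run 2, *Xist* was detected in 4 of 7 cells labelled *Prdm14* (+/-) and in 2 of 3 labelled WT. *Eif2s3y* was detected there in 2 of 7 labelled *Prdm14* (+/-) and in 0 of 3 labelled WT. Neither transcript thus showed within run 2 the lean seen over all cells, though only 3 cells there were labelled WT. The part of these transcripts in the differences above was not tested.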

How the data were processed

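Expression was measured in single mouse PGCs, each on 1 array. The deposited log2 MBEI values were made by the authors with dChip (version 1.3) from the difference of perfect-match and mismatch probes. How arrays were scaled to each other, and why many values stand at 0, was not given in the sources used here. No 2 of the 26 arrays held identical values. The number of arrays limits the precision.

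Here, values were floored at 6 (64 MBEI). Of 45101 probe sets, 34958 had 1 gene symbol in the platform annotation, 932 had several and 9211 were unnamed. Each of 18194 genes was read from its brightest probe set, by the mean of all 30 arrays. Groups and the array run were taken from the labels. A gene was called where the means of the cells differed by at least 1, with no test, because each genotype counts as 1 sample. Run 2 (7 and 3 cells) and the other cells (6 and 10) gave a pair of differences with no cell in common. Genes were named by the smaller of the 2, the 12 highest in rank on each side. The genes of 28 lists and the rules were chosen with earlier results of these data known; the list of neighbours of *Prdm14* was added after seeing the data, and 37 listed genes were not found. A list score is the mean over the measured members in a cell. The scripts were tested on simulated data.

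Alternatives were floors of 4 and 8, quantile normalization, scaling on 3239 probe sets above 0 on every array or to the same 75th percentile, the mean over a gene's probe sets, medians, the run as a block, single sets of runs, a filter on detection, and leaving out each cell labelled WT of run 2. Python 3.11.15, NumPy 2.4.6, pandas 2.3.3, SciPy 1.17.1 and matplotlib 3.10.9 were used.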

Additional observations from a re-analysis of the deposited data

Results flagged for a closer look

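Among 102 sets of values (a list score or a gene, in cells of 1 label and 1 run), 7 held a cell that stood apart from the others of its set by more of the range than the 95% limit for its size. That limit is set to flag about 1 in 20 independent sets. These sets share cells and genes and hold values at the floor, so how many flags chance alone would give is not known. In run 2, among cells labelled *Prdm14* (+/-), replicate 5 had the highest apoptosis and survival score, 8.73, against 8.15 in the nearest cell, and replicate 3 the highest Hox score, 6.58, against 6.13. In run 3, among cells labelled *Prdm14* (+/-), replicate 13 had a G2 and M phase score of 7.15, against 10.18 in the nearest cell, replicate 11 had the lowest score of the neighbours of *Prdm14*, 7.19, against 7.86, and replicate 12 the lowest *Pou5f1*, 9.35, against 11.38. In run 1, among cells labelled WT, replicate 6 had the highest pluripotency score, 8.78, against 7.74, and replicate 4 the highest Y-linked score, 8.55, against 7.33.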

How the results depend on the processing

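The counts of called genes depended on the floor and on which cells were taken. Genes higher and lower numbered 1128 and 953 with a floor of 4, 45 and 46 with a floor of 8, 168 and 183 when all probe sets of a gene were averaged, 844 and 823 with medians over cells, 1123 and 1548 within run 2 or with the run as a block, which are the same comparison because run 1 and run 3 each hold 1 of these labels, and 896 and 605 in the other cells. Lower genes numbered 697 with scaling to the same 75th percentile, where 346 were higher. Within run 2 they numbered 1997 and 2641 with a floor of 4 and 332 and 489 with a floor of 8. Leaving out each cell labelled WT of run 2 in turn gave 1124 to 1600 higher and 1735 to 1984 lower genes. The share of genes called in run 2 that were called the same way in the other cells was 10.1%, beside 9.06% called the opposite way. It was 16.4% and 16.5% with a floor of 4, 3.78% and 3.41% with a floor of 8, and 9.42% to 9.99%, beside 8.79% to 9.69% the opposite way, without a cell labelled WT. Without replicate 13 labelled WT, 314 genes were called the same way and 323 the opposite way. The cause of these shifts was not tested. *Dppa3* had a difference of 1.18 over the 26 cells and of -0.61 in the cells of the other runs. Of 240 values of the 24 named genes under alternatives, 13 moved by more than the pooled SD and 0 turned their sign, but 12 genes fell under the size of a call under at least 1 alternative: *Lrrc28*, *Mid1ip1*, *Naprt*, *Nit1* and *Rnf130* with a floor of 8, *Adam19*, *Arhgap29*, *Etnk1*, *Lrrc28*, *Mtss1*, *Neurl1a*, *Rnf130* and *Zfp629* with all probe sets averaged, and *Aldh9a1* with medians. The named genes were chosen for the same sign within run 2 and in the other cells. Under those settings, and with the run as a block, their sign could not turn. The small differences of *Nanog* (-0.44) and *Pou5f1* (-0.40) were 0.09 and 0.14 with medians over cells, and -1.75 and -0.84 within run 2. The difference of *Prdm1* (0.11) was -0.12 with the same 75th percentile and -0.27 within run 2. Of 290 values of list scores, 13 moved by more than the pooled SD, glycolysis among them at -0.87 within run 2. A smaller move could still turn a sign. Scores ran from -0.28 to 0.96 for the G2 and M phases and from -0.16 to 0.76 for germ cell genes. Other lists kept their sign, such as glycolysis at -0.87 to -0.22 and pluripotency at 0.17 to 0.46. No paired analysis was possible because the labels give no pairing of cells between the genotypes. Limits are the lack of an embryo label, the 3 cells labelled WT in the only run shared by the labels, and amplified single-cell cDNA in which a value at the floor can be a missed transcript.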
